A study of Homo sapiens with 6 samples.

Results

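The genes described here are ANGPTL4, the receptors PPARA, PPARD and PPARG, their partner RXRA, and 5 target genes of these receptors, PDK4, PLIN2, CPT1A, ACADVL and HADHA. They are 10 of the 58825 gene identifiers in the table. A count was found in at least 1 library for 9 of them, and 8 passed the filter on low counts and stood among the 16208 genes tested. The members were chosen by name when the difference between the groups was already known in these data, so their values below are a description and carry no test.

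RNA was sequenced from SKOV3, a human epithelial ovarian cancer cell line cultured in RPMI-1640 with fetal bovine serum. The cells received a negative control siRNA (NC) or an siRNA against EIF5A2 (si-EIF5A2) for 48 h, with 3 libraries in each group. The question was which transcripts differ once the translation factor EIF5A2 is depleted. The siRNA was delivered by transient transfection with INTERFERin in both groups, a single siRNA against EIF5A2 is named, and 1 cell line was used. The labels do not say whether the 3 libraries of a group came from separate cultures, so a p-value measures only the spread between these libraries, which may be technical.

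PPARs are nuclear receptors that bind fatty acids and their derivatives. They bind DNA as pairs with a retinoid X receptor and switch on genes for fatty acid uptake, storage and oxidation. PPARα drives fatty acid oxidation in liver, PPARδ acts in many tissues, and PPARγ drives fat cell formation. ANGPTL4, a secreted inhibitor of lipoprotein lipase, is among the classical targets of all PPARs and is also induced by hypoxia and by glucocorticoids.

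The libraries held 46900204 to 74142267 estimated counts. Low counts peaked near multiples of 3.69, with other values between the peaks. Taking that step as the worth of 1 fragment, a gene listed at 0 could have had up to 3 fragments, or 0.152 to 0.236 CPM, the count scaled to library size. Such limits cover counting error only. EIF5A2 fell from 29.2 ± 1.15 to 3.69 ± 0.817 CPM (SD, n = 3 in each group), to 12.7% of NC, and its groups did not overlap. Of the epithelial ovarian cancer markers 9 of 10 were tested, and MUC16 was listed at 0. Their summed level was 1508 to 1676 CPM in NC against 958.5 to 1170 CPM in si-EIF5A2. Of these markers 4, KRT7, KRT8, PAX8 and CLDN4, fell, with log2 fold changes of -0.87, -0.69, -0.80 and -2.09. CLDN4 averaged under 1 CPM, so the size of its fold change is uncertain, and its call was not followed under the alternatives. Of the adipocyte markers 5 of 7 were at 0 everywhere and the list summed to at most 0.425 CPM in any library. The hepatocyte list held SERPINA1 as its 1 tested gene, and summed to 11.3 to 16.7 CPM in NC against 5.13 to 9.16 CPM in si-EIF5A2. PTPRC and CD3E were at 0 in the leukocyte list, which summed to 40.8 to 57.4 CPM in NC against 28.97 to 55.5 CPM in si-EIF5A2, nearly all of it CD68. Endothelial markers summed to 2.26 to 2.40 and 0 to 1.31 CPM, and fibroblast markers to 0.872 to 1.41 and 0.861 to 2.52 CPM, in NC and si-EIF5A2 respectively. The part of these shifts in the results below was not tested.

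ANGPTL4 (ENSG00000167772) lies on the plus strand of chromosome 19, from 8363289 to 8374373 in GRCh38. The 250 bases before the RefSeq start of ANGPTL4 (chr19:8363905-8364154, plus strand, GRCh38.p14) and before the first listed RefSeq start of PPARG (chr3:12287118-12287367, plus strand) are shown because ANGPTL4 had the highest fold change of the members and PPARG was the 1 member with the receptor hexamer in a window. Capitals mark TATAAA, the core of a TATA box, in ANGPTL4 and AGGTCA, the hexamer that nuclear receptors bind, in PPARG.
ANGPTL4: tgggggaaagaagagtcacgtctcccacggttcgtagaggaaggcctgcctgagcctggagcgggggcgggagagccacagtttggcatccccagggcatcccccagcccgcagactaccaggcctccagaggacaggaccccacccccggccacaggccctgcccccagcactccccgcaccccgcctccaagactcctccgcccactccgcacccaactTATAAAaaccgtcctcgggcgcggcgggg
PPARG: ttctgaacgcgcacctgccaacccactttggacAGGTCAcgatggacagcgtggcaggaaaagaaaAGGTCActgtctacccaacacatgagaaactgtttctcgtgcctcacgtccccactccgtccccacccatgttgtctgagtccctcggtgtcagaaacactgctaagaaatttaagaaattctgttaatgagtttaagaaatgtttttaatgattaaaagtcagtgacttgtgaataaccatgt
Both strands were searched for these letters. TATAAA began 29 bases before the ANGPTL4 start, and was found in 10.7% of 35116 RefSeq windows of this length. AGGTCA was present at positions -217 and -184 of the PPARG window and in 12.1% of all windows. Among the 18 windows of the members, 3 held AGGTCA, all of them of PPARG and some of them overlapping. An exact form of the PPAR element, AGGTCA, any base and AGGTCA again, was in 6 of all windows (0.0171%) and in none of the members' windows. An exact match this rare, sought in 250 bases only, cannot show whether a member has such an element. ACGTG, the core of the hypoxia element, was in 4 windows of the members, 1 of them ANGPTL4 at position -234, and in 18.5% of all windows. A match describes the letters in this window only. GENCODE places the first base of ANGPTL4 upstream of the RefSeq start used here.

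ANGPTL4 showed the highest fold change of the members. It stood at 3.26, 3.73 and 3.60 CPM in NC replicates 1 to 3, and at 59.3, 88.1 and 75.3 CPM in si-EIF5A2 replicates 1 to 3. The lowest si-EIF5A2 library was far above the highest NC library. The means were 3.53 ± 0.240 CPM in NC against 74.2 ± 14.4 CPM in si-EIF5A2 (SD, n = 3 each), which is a log2 fold change of 4.40 (SE 0.169) or 21.1-fold. By log2 fold change ANGPTL4 ranked 19 of all 16208 genes tested, and 2 of the 8844 genes that averaged 10 CPM or more. Its exons share 1 base with RAB11B-AS1 on the opposite strand. In bulk RNA, fewer cells with a transcript and less of it per cell cannot be told apart, here and in all values below.

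**Figure D1:**
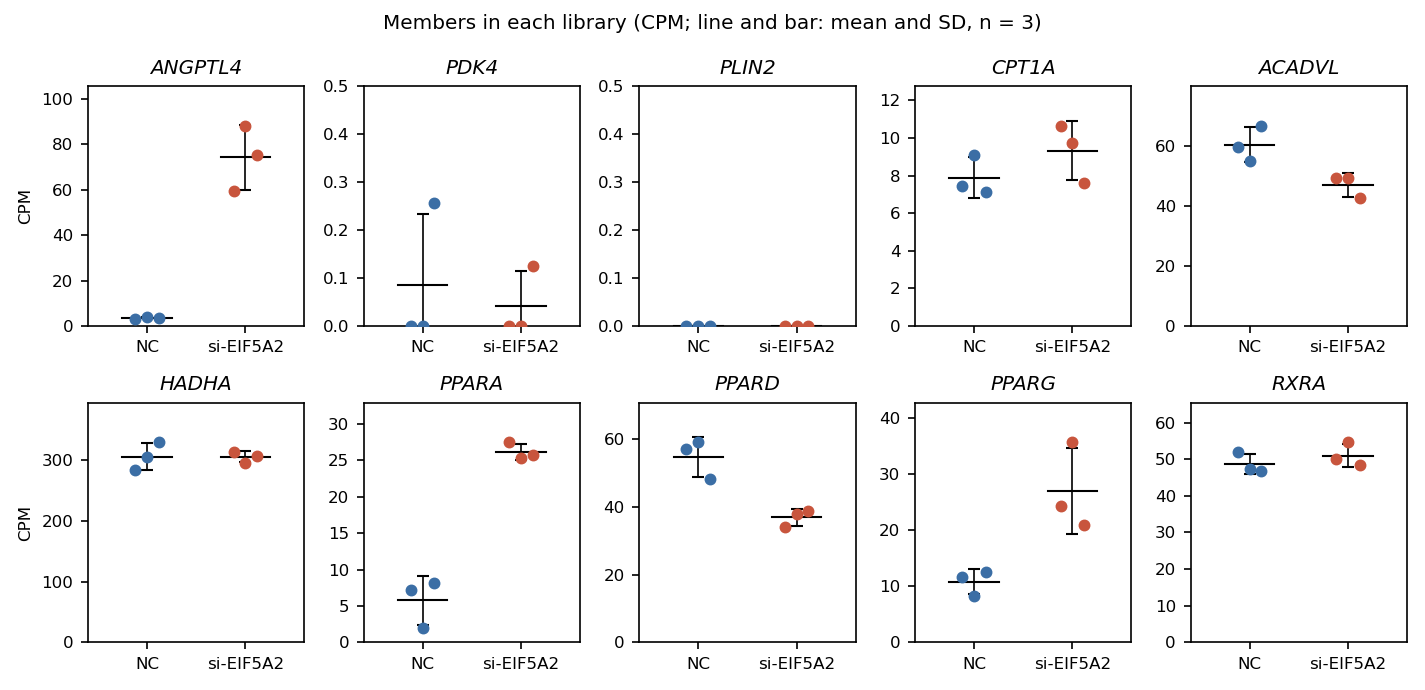
Level of each of the 10 members in every library, in CPM on linear axes that start at 0 and differ in scale between panels. Points are libraries, lines and bars are the mean and SD of 3 libraries. ANGPTL4, PPARA and PPARG lie higher in si-EIF5A2 with no overlap, PPARD and ACADVL lower, and PLIN2 is at 0 in every library.

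Among the receptors, PPARA and PPARG were higher in si-EIF5A2 and PPARD was lower. PPARA (chromosome 22, from 46150521 to 46243756, plus strand) stood at 7.25, 1.95 and 8.17 CPM in NC and at 27.4, 25.3 and 25.8 CPM in si-EIF5A2. The si-EIF5A2 libraries lay close together, whereas NC replicate 2 was well below the other NC libraries. The means were 5.79 ± 3.36 and 26.2 ± 1.12 CPM (SD, n = 3 each), with a log2 fold change of 2.18 (SE 0.532), and of 1.76 without NC replicate 2. PPARA lost its call without NC replicate 1, without any one of the si-EIF5A2 replicates, and without a filter on low counts. Its log2 fold change lay between 1.76 and 2.50 whichever library was left out.

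PPARG, on the plus strand of chromosome 3 from 12287368 to 12434356, stood at 11.6, 8.36 and 12.5 CPM in NC. In si-EIF5A2 it stood at 24.4, 35.7 and 21.0 CPM, so that every si-EIF5A2 library was above every NC library. The means were 10.8 ± 2.19 and 27.0 ± 7.69 CPM (SD, n = 3 each), and the log2 fold change was 1.32 (SE 0.236), or 2.50-fold.

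PPARD (chromosome 6, from 35342558 to 35428191, plus strand) went the other way. It stood at 57.3, 59.1 and 48.2 CPM in NC and at 34.1, 37.9 and 38.8 CPM in si-EIF5A2, with no overlap. The means of 54.9 ± 5.82 and 37.0 ± 2.50 CPM (SD, n = 3 each) gave a log2 fold change of -0.57 (SE 0.107), just short of the 1.5-fold limit used for a call. Without NC replicate 3, si-EIF5A2 replicate 2 or si-EIF5A2 replicate 3, and without the filter on low counts, it passed that limit.

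RXRA, the common DNA-binding partner of the receptors (chromosome 9, from 134317098 to 134440585, plus strand), overlapped between the groups. Its levels were 51.9, 47.3 and 46.8 CPM in NC and 49.9, 54.6 and 48.4 CPM in si-EIF5A2. The log2 fold change was 0.07 (SE 0.0883).

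Levels of different genes were compared per length, as TPM, which divides each count by exon length before scaling. In NC, PPARD led the receptors with 34.0 ± 3.11 TPM, ahead of RXRA with 12.1 ± 0.441, PPARG with 6.61 ± 1.38 and PPARA with 1.21 ± 0.709 TPM (SD, n = 3), and no neighbours in this order overlapped. In si-EIF5A2 the order was PPARD with 24.1 ± 1.40, PPARG with 17.2 ± 4.39, RXRA with 13.4 ± 0.503 and PPARA with 5.76 ± 0.402 TPM, and PPARG and RXRA overlapped. The summed level of the PPAR genes was 41.8 ± 1.51 TPM in NC and 47.1 ± 3.72 TPM in si-EIF5A2. Within that sum the share of PPARD was 80.5%, 87.0% and 76.2% in NC and 50.7%, 46.5% and 57.0% in si-EIF5A2. PPARG supplied 16.1%, 12.1% and 19.4% of the sum in NC and 35.6%, 43.0% and 30.3% in si-EIF5A2. The share of PPARA was 3.44%, 0.967% and 4.35% in NC and 13.7%, 10.5% and 12.8% in si-EIF5A2. All these shares lay apart between the groups, with PPARD the largest in each of the 6 libraries. TPM rests on the summed exon length of each gene and so does not follow which isoform was used.

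**Figure D2:**
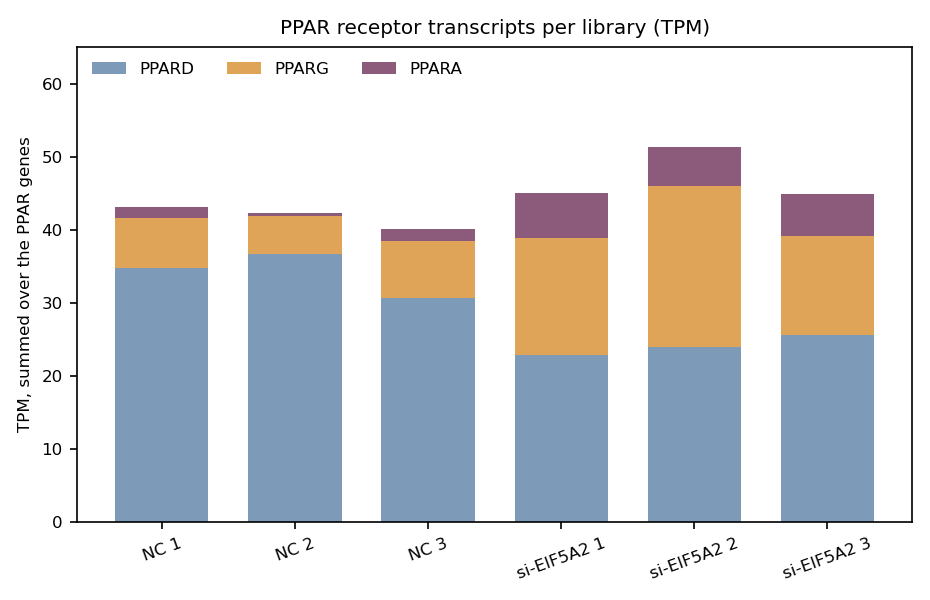
Transcripts of PPARD, PPARG and PPARA in each library, stacked on a linear axis in TPM. PPARD supplies 76.2% to 87.0% of the sum in NC and 46.5% to 57.0% in si-EIF5A2, while PPARG and PPARA take larger shares there.

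Of the other targets, PDK4 and PLIN2 were at or near 0, and CPT1A, ACADVL and HADHA differed less between the groups than ANGPTL4. PDK4, a mitochondrial kinase that shuts down pyruvate dehydrogenase (chromosome 7, from 95583499 to 95596491, minus strand), had 12 counts in NC replicate 3, 6 counts in si-EIF5A2 replicate 3 and 0 in the other 4 libraries. As 3 fragments correspond to about 11.1 counts at that step, PDK4 was at the limit of detection and was not tested. PLIN2, which coats lipid droplets (chromosome 9, from 19108375 to 19149290, minus strand), was listed at 0 in all 6 libraries. Whether that 0 reflects the cells or the estimation of transcripts was not tested.

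CPT1A, the gate for the entry of long-chain fatty acids into mitochondria (chromosome 11, from 68754620 to 68844410, minus strand), was at 7.45, 9.12 and 7.10 CPM in NC. It was at 10.6, 9.73 and 7.59 CPM in si-EIF5A2, with overlapping groups and a log2 fold change of 0.24 (SE 0.176). ACADVL, the very long-chain acyl-CoA dehydrogenase (chromosome 17, from 7217125 to 7225273, plus strand), was at 59.5, 54.9 and 66.5 CPM in NC and at 49.3, 49.1 and 42.4 CPM in si-EIF5A2. The groups of ACADVL did not overlap, and its log2 fold change of -0.36 (SE 0.105) was below the fold limit. Exons of ACADVL share 85 bases, 1.75% of its exon length, with DLG4 on the opposite strand. HADHA, the alpha subunit of the mitochondrial trifunctional protein (chromosome 2, from 26190635 to 26244726, minus strand), was at 283.4, 304.6 and 328.7 CPM in NC and at 313.8, 295.2 and 307.1 CPM in si-EIF5A2. Its groups overlapped, with means of 305.5 ± 22.7 and 305.4 ± 9.39 CPM (SD, n = 3 each).

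Per length, ANGPTL4 in NC (3.93 ± 0.336 TPM) was close to CPT1A (3.32 ± 0.452 TPM), and the ranges of these genes overlapped. In si-EIF5A2 it reached 86.6 ± 14.4 TPM, above every other member except HADHA with 202.5 ± 12.2 TPM. ACADVL and PPARD overlapped in NC, at 34.3 ± 3.86 and 34.0 ± 3.11 TPM.

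A gene was called where the edgeR adjusted p was under 0.05 and the fold change over 1.5. By that rule 3 of the 8 tested members were called, all of them higher in si-EIF5A2. Over all 16208 genes 24.6% were called, 11.1% as higher and 13.6% as lower. The groups did not overlap for 5 of the 8 members and for 51.2% of all genes. Nothing is read from these member counts, since the members were selected on this contrast.

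**Figure D3:**
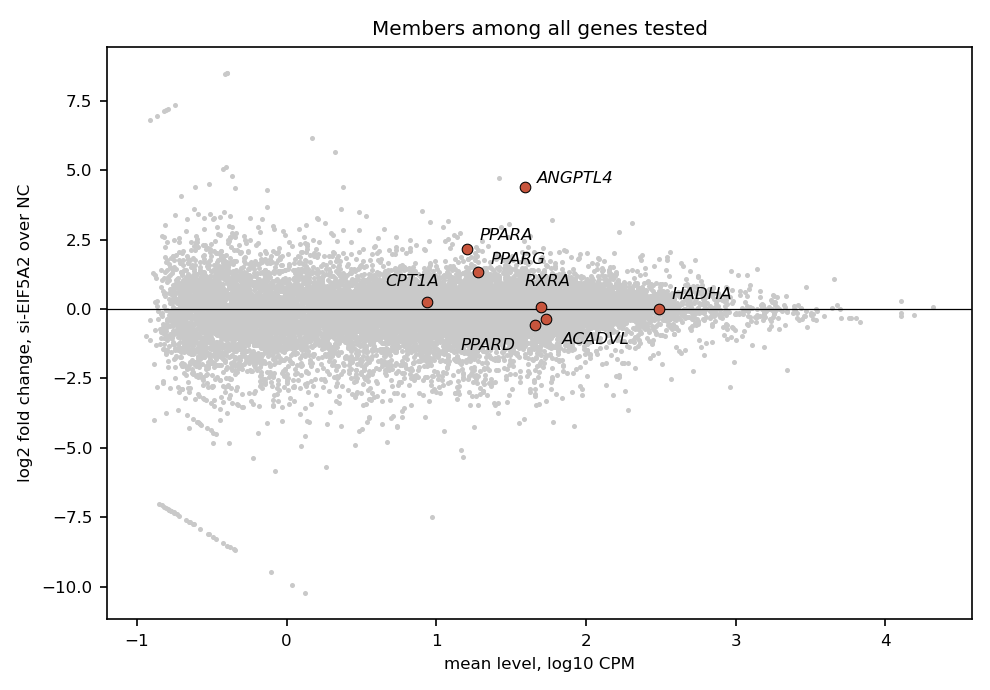
Log2 fold change of si-EIF5A2 over NC against the mean level (log10 CPM) for the 16208 genes tested (grey), with the 8 tested members in red. ANGPTL4 stands above nearly all genes of its level, PPARA and PPARG lie above 0, and RXRA, CPT1A and HADHA lie near 0.

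The profiles over the 6 libraries nearest to that of ANGPTL4 were sought by Euclidean distance of log2 CPM centred on NC, among genes averaging 10 CPM or more. They were EGR1, TNFSF15, CXCL8, SERPINB7 and TMEM200A. With this centring the distance rests largely on the size of the rise, so genes with large rises are near by construction. By log2 fold change these genes ranked 15, 43, 47, 48 and 44 among all genes tested. EGR1, an immediate early transcription factor, was nearest at a distance of 0.746. Its level was 1.88 ± 0.178 CPM in NC against 50.4 ± 4.81 CPM in si-EIF5A2 (SD, n = 3 each), and its log2 fold change was 4.74. TNFSF15, a cytokine of the TNF family, followed at 1.88, CXCL8, the neutrophil chemokine IL-8, at 1.98, the serpin gene SERPINB7 at 2.15 and TMEM200A at 2.33. These 4 genes had log2 fold changes of 3.22, 3.10, 3.08 and 3.17.

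Of the 133 other genes of the pathway, 16 were at 0 in every library and 105 were tested. Of these 28 (26.7%) were called, 10 as higher and 18 as lower, beside 24.6% of all genes. The groups did not overlap for 61.9% of the 105 genes, beside 51.2% of all genes. The median log2 fold change of the 105 genes was -0.0041 and that of all genes was -0.0105. The lists went in both directions, as did single steps of the same process. Below, rose and fell within a list mean called as higher or lower by the rule above.

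**Figure D4:**
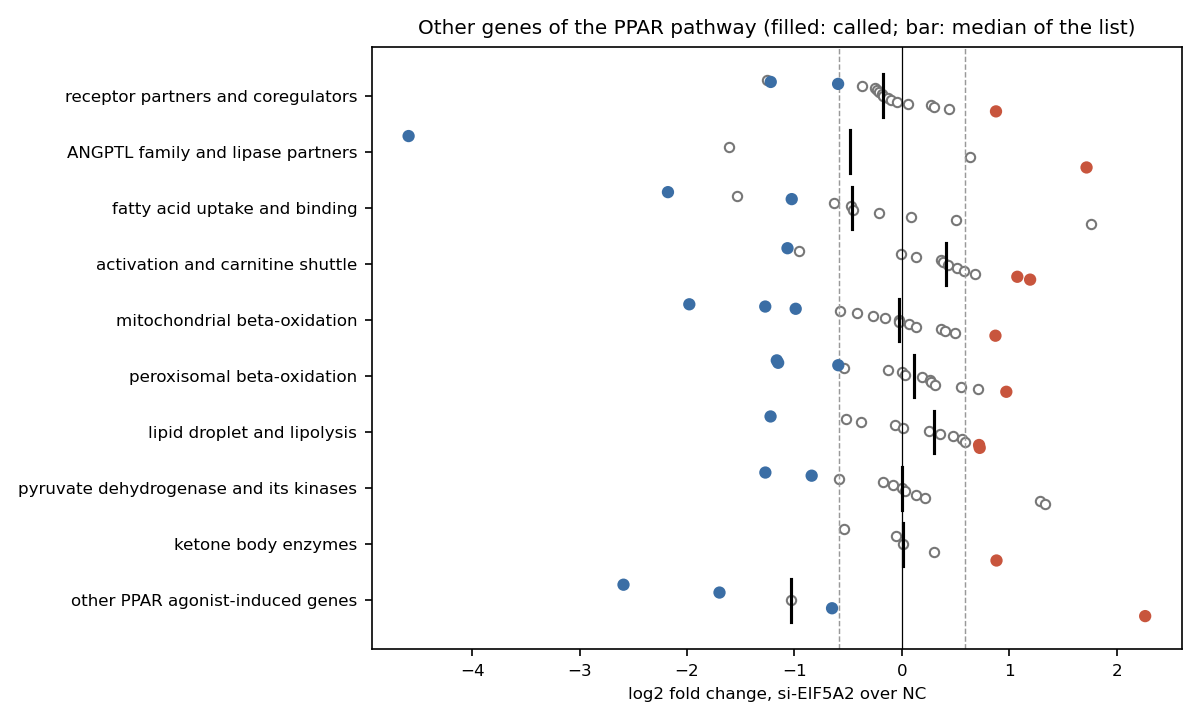
Log2 fold change of si-EIF5A2 over NC for the 105 tested genes of 10 pathway lists that exclude the members. Filled points are called (red higher, blue lower), open points are not, black bars are list medians and dashed lines mark 1.5-fold; calls in both directions stand in most lists.

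Among 17 tested receptor partners and coregulators, 1 rose, 2 fell and 14 were not called, with a median of -0.18. NCOA3, a coactivator of nuclear receptors, rose from 33.8 ± 1.70 to 62.0 ± 7.06 CPM (log2 fold change 0.88, SE 0.106, edgeR adjusted p = 0.000449). SIRT1, a deacetylase that acts on PPAR coactivators, fell from 18.8 ± 1.48 to 8.05 ± 0.874 CPM (-1.22, SE 0.131, edgeR adjusted p = 0.000252). PPARGC1B, a coactivator of oxidative metabolism, fell from 7.12 ± 0.716 to 4.72 ± 0.823 CPM (-0.59, SE 0.181, edgeR adjusted p = 0.0348), a call that was lost under 6 of 14 alternatives. Its relative PPARGC1A was at 0.767, 0.0565 and 1.77 CPM in NC and at 0.372, 0.383 and 0.313 CPM in si-EIF5A2, with overlapping groups (edgeR adjusted p = 0.364). RXRB was at 50.5 ± 6.29 and 42.4 ± 8.75 CPM (edgeR adjusted p = 0.290), and RXRG was listed at 0.

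The relatives of ANGPTL4 were scarce. ANGPTL2, a secreted protein linked to inflammation, was at 2.60, 2.41 and 2.66 CPM in NC and at 0, 0.307 and 0 CPM in si-EIF5A2, so that it fell while ANGPTL4 stood higher (edgeR adjusted p = 0.0243). That call was lost without any one of the NC libraries, under the replicate block and without the filter, over which its adjusted p reached 0.0752. ANGPTL5 and ANGPTL7 were listed at 0, and ANGPTL1, ANGPTL6 and ANGPTL8 had a few counts at most. LPL, the lipase that ANGPTL4 inhibits, was at 0.170 CPM in NC replicate 3 and at 0 elsewhere, and GPIHBP1, its anchor on capillaries, was listed at 0. LIPG, the endothelial lipase, was higher at 0.708 ± 0.106 against 0.214 ± 0.0635 CPM (edgeR adjusted p = 0.0336). LIPG is low enough to fall outside the rule for named genes and is given here because the list holds 2 called genes. Its NC level lay near the limit of 3 fragments, so the size of its difference is uncertain. Its call was not followed under the alternatives.

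Fatty acid uptake and binding held 10 tested genes, of which 2 were called lower and none higher, with a median of -0.47. By sign, 3 lay above 0 and 7 below. Under the fold limit, DBI was higher (log2 fold change 0.51, edgeR adjusted p = 0.0016) and FABP5 lower (-0.46, edgeR adjusted p = 0.0027). SLC27A5, a bile acid and fatty acid CoA ligase, fell from 3.29 ± 0.299 to 1.62 ± 0.423 CPM (log2 fold change -1.02, SE 0.261, edgeR adjusted p = 0.0165), a call lost without NC replicate 1. SLC27A2, a fatty acid transporter below 1 CPM on average, was the other gene called lower (-2.18, SE 0.581, edgeR adjusted p = 0.0202). Its si-EIF5A2 levels of 0.157, 0.134 and 0.396 CPM lay near the limit of 3 fragments, and its call was not followed under the alternatives. In the activation of fatty acids and the carnitine shuttle, 2 of 12 genes were called higher and 1 lower, with a median of 0.41. By sign, 9 lay above 0 and 3 below. ACSL1, ACSL3, ACSL5 and CRAT were higher with an edgeR adjusted p under 0.05 but under the fold limit, with log2 fold changes of 0.58, 0.51, 0.43 and 0.39. MLYCD, which degrades the CPT1 inhibitor malonyl-CoA, rose from 3.32 ± 0.367 to 6.99 ± 0.418 CPM (1.08, SE 0.161, edgeR adjusted p = 0.00136). Exons of MLYCD overlap another gene on the same strand, so the split of fragments between these genes is uncertain. SLC25A20, the carnitine carrier of the inner membrane, rose from 7.34 ± 2.13 to 16.8 ± 7.12 CPM (1.19, SE 0.355, edgeR adjusted p = 0.0392), a call lost under 7 of 14 alternatives. CROT, the peroxisomal carnitine octanoyltransferase, fell from 2.36 ± 0.180 to 1.13 ± 0.302 CPM (edgeR adjusted p = 0.0196), and lost its call without NC replicate 1, NC replicate 2, si-EIF5A2 replicate 1 or si-EIF5A2 replicate 3. CPT2, which acts after CPT1A, was at 20.9 ± 0.920 and 20.8 ± 1.32 CPM (edgeR adjusted p = 0.982).

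Mitochondrial beta-oxidation held 15 tested genes besides the members, of which 1 rose and 3 fell, with a median of -0.03. ETFA, a subunit of the electron transfer flavoprotein that takes electrons from acyl-CoA dehydrogenases, was at 55.1, 64.7 and 76.0 CPM in NC and at 17.5, 16.2 and 16.1 CPM in si-EIF5A2. It fell by 1.98 on the log2 scale (SE 0.130, edgeR adjusted p = 2.36e-05), with no overlap between the groups. HADH, the dehydrogenase for medium and short chains, fell from 26.5 ± 2.38 to 11.0 ± 0.453 CPM (log2 fold change -1.27, SE 0.112, edgeR adjusted p = 9.59e-05). ACADS, the short-chain acyl-CoA dehydrogenase, fell from 7.63 ± 0.483 to 3.85 ± 0.250 CPM (-0.99, SE 0.146, edgeR adjusted p = 0.00125). DECR1, a reductase needed for unsaturated fatty acids, rose from 59.1 ± 6.81 to 108.2 ± 9.88 CPM (0.87, SE 0.109, edgeR adjusted p = 0.000546). HADHB, the partner subunit of HADHA, was at 124.6 ± 3.95 and 136.6 ± 7.37 CPM (edgeR adjusted p = 0.197).

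Of 14 peroxisomal beta-oxidation genes 1 rose and 3 fell, with a median of 0.11. EHHADH, the peroxisomal bifunctional enzyme and a classical PPARα target, fell from 7.94 ± 1.10 to 3.54 ± 0.680 CPM (log2 fold change -1.16, SE 0.199, edgeR adjusted p = 0.00260). SCP2, a sterol carrier and thiolase, fell by 1.15 on the log2 scale (SE 0.144, edgeR adjusted p = 0.000541), and ACOX3, an acyl-CoA oxidase, by 0.59 (SE 0.188, edgeR adjusted p = 0.0399). The ACOX3 call was lost under 8 of 14 alternatives. DECR2 rose from 4.76 ± 1.12 to 9.37 ± 0.947 CPM (edgeR adjusted p = 0.00644). Its exons overlap NME4 on the same strand, and those of SCP2 overlap TUBBP10, so the split of fragments between these genes is uncertain.

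On lipid droplets, PLIN1 and PLIN5 were listed at 0, like PLIN2, whereas PLIN3 was present at 127.7 ± 15.6 CPM in NC against 177.6 ± 22.1 CPM in si-EIF5A2. The log2 fold change of PLIN3 was 0.48 (SE 0.122, edgeR adjusted p = 0.0167), below the fold limit. Of 12 tested genes 2 rose and 1 fell, with a median of 0.30. HILPDA, an inhibitor of the lipase ATGL, rose from 5.81 ± 1.14 to 9.61 ± 0.683 CPM (log2 fold change 0.72, SE 0.176, edgeR adjusted p = 0.0135), a call lost without NC replicate 3. BSCL2, which encodes seipin, rose from 13.5 ± 0.562 to 22.2 ± 2.68 CPM (0.72, SE 0.122, edgeR adjusted p = 0.00253). Exons of both overlap other genes on the same strand. LIPE, the hormone-sensitive lipase, fell from 2.48 ± 1.03 to 1.06 ± 0.365 CPM (edgeR adjusted p = 0.0442), a call lost without NC replicate 1, without NC replicate 2 or without any one of the si-EIF5A2 libraries.

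The kinases that share the substrate of PDK4 went down or did not pass the test. PDK2 was at 26.2, 26.2 and 19.6 CPM in NC and at 15.7, 11.6 and 13.0 CPM in si-EIF5A2, and fell by 0.84 on the log2 scale (SE 0.164, edgeR adjusted p = 0.00500). PDK1 was at 10.4 ± 0.663 and 9.75 ± 1.48 CPM (edgeR adjusted p = 0.695) and PDK3 at 4.28 ± 0.757 and 2.86 ± 0.0753 CPM (edgeR adjusted p = 0.0502). PDPR, the regulatory subunit of the opposing phosphatase, fell from 43.4 ± 16.2 to 18.0 ± 3.05 CPM (edgeR adjusted p = 0.0228), a call lost without NC replicate 1, NC replicate 3, si-EIF5A2 replicate 1 or si-EIF5A2 replicate 2, and without the filter on low counts. The list of pyruvate dehydrogenase and its kinases had 11 tested genes, 2 of them lower and none higher, with a median of 0.0035. Of 5 ketone body genes BDH1, the 3-hydroxybutyrate dehydrogenase, rose from 7.23 ± 0.393 to 13.3 ± 1.03 CPM (0.88, SE 0.126, edgeR adjusted p = 0.00110).

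Of 5 tested genes among the other genes that PPAR agonists induce, 1 rose and 3 fell, with a median of -1.03. VNN1, a pantetheinase, rose from 0.370 ± 0.261 to 1.81 ± 0.134 CPM (log2 fold change 2.27, SE 0.502, edgeR adjusted p = 0.00890). TXNIP, an inhibitor of thioredoxin and of glucose uptake, fell from 136.2 ± 4.63 to 42.0 ± 4.53 CPM (-1.70, SE 0.0962, edgeR adjusted p = 1.26e-05). CYP27A1, the sterol 27-hydroxylase, fell by 0.65 on the log2 scale (SE 0.105, edgeR adjusted p = 0.00200).

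As ANGPTL4 is also induced by hypoxia and by glucocorticoids, the genes of these responses were listed beside it. Of 18 tested hypoxia-induced genes P4HA1 rose, by 0.85 on the log2 scale, while SLC2A1 and DDIT4 fell, by 0.86 and 0.75, and the median was -0.05. The SLC2A1 call was lost under 8 of 14 alternatives. Of 11 glucocorticoid-induced genes SGK1, DUSP1 and CEBPD rose, with log2 fold changes of 1.11, 0.88 and 0.84, and FKBP5 fell by 1.10, with a median of 0.16. The CEBPD call was lost without NC replicate 2 or si-EIF5A2 replicate 2.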

How the data were processed

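The authors sequenced paired-end mRNA libraries and estimated transcript levels with StringTie and ballgown. They deposited 1 table of estimated counts per gene, already whole numbers and not normalized, which was matched to the 6 libraries by column name with 0 columns left over. The submitters' processing notes list Bowtie 0.12.2 and the mouse builds mm8 and mm9, although the identifiers are human, and the build used for the table is otherwise not given in the sources used here. The test had been planned for plain counts and was kept on these whole numbers. With counts divided by their step and rounded, 13756 genes were tested and 3987 (29.0%) called, against 16208 and 3992 (24.6%). The log2 fold change of ANGPTL4 was then 4.39, and the edgeR adjusted p of ANGPTL2 was 0.00115. StringTie divides fragments between overlapping transcripts, and without strand information a gene cannot be separated from an overlapping antisense gene.

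Symbols were found for 58817 of 58825 identifiers, and positions and exon lengths for 58552 in GENCODE release 29. edgeR 4.0.16 (R 4.3.3) was run on all 6 libraries with filterByExpr, TMM, robust quasi-likelihood fits and p-values adjusted by Benjamini-Hochberg across the 16208 genes tested. Calls needed an adjusted p under 0.05 together with a change of over 1.5-fold. Standard errors were derived from the log2 fold change and the F statistic of each gene. CPM were scaled by TMM library sizes, with factors of 0.985 to 1.01. Profile distances used a pseudocount of 0.5 CPM. The common biological coefficient of variation was 0.261. Library totals and the limit of 3 fragments set the precision of low values. The fits were also run on simulated negative binomial counts drawn with the fitted dispersions, and the outcome is not reported here. The simulated counts lacked the step of the real low counts, so that run does not check the fits on stepped counts.

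The members and gene lists were chosen with earlier results of these data known, and no list was tested as a set. The genes named are the 10 members, EIF5A2, up to 3 called genes in each direction per list with a mean of at least 1 CPM, close relatives of members by name, and the 5 genes nearest to ANGPTL4. Some genes under this rule are not reported here. SLC27A2, LIPG, RXRG, GPIHBP1, CLDN4, RAB11B-AS1, DLG4 and the marker genes fall outside it and were picked with their values in view. Alternatives were DESeq2 1.42.0, other scalings and filters, counts divided by their step, the replicate number as a block, other thresholds, and each library left out in turn.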

Additional observations from a re-analysis of the deposited data

How the results depend on the processing

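The log2 fold change of ANGPTL4 lay between 4.25 and 4.53 when single libraries were left out. Leaving out single libraries gave 3638 to 3907 genes called over the whole table, against 3992, 21 to 29 pathway genes called, against 28, and a pathway median of -0.0581 to -0.0182, against -0.0041. As shares of the genes tested, these were 19.81% to 27.1% of the pathway beside 21.77% to 23.27% of all genes. With no limit on the fold change 49 pathway genes (46.67%) passed, 25 higher and 24 lower, beside 5974 of all genes (36.86%). An unadjusted p under 0.05 with a fold over 2 called 20 pathway genes (19.05%), 5 higher and 15 lower, beside 2370 of all genes (14.62%). Without a filter on low counts the pathway median was -0.0732. The number of genes tested also differed between some of these settings, and why the counts moved was not tested. DESeq2 called 4312 genes in all (26.6%) and 33 of the pathway (31.43%).

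Same-numbered libraries did not visibly deviate together (correlations of -0.0584, 0.0122 and 0.00283, against -0.0615 to 0.0551 for differently numbered ones). These correlations cannot settle whether same-numbered libraries were prepared together, which the labels do not say. With the replicate block 3731 genes (23.02%) and 26 pathway genes (24.76%) were called. The pathway median was then -0.0049, and the log2 fold change of ANGPTL4 was 4.38.

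Of 37 called list genes that are named, 25 kept the call under all of up to 14 alternatives, and none changed direction. The most calls lost under 1 setting were 9, without NC replicate 1 or NC replicate 2. SERPINA1 lost its call without NC replicate 2 or NC replicate 3. With 3 libraries per group and 46900204 to 74142267 counts each, values near the limit of 3 fragments, as for PDK4, LPL and PLIN2, could not be compared. LIPG and VNN1 in NC and SLC27A2 in si-EIF5A2 were also near that limit, so the sizes of their differences are uncertain.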
